A study of Mus musculus with 13 samples.

Results

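Interferon-stimulated genes were followed across all libraries of the Hmox2 series as a set of 9 genes: Ifit1, Ifit2, Ifit3, Isg15, Irf7, Oasl2, Rsad2, Usp18 and Bst2. The set was drawn up by name, from genes that are known to respond to type I interferon, and no value enters it, although earlier results of these data were known when it was chosen. It held 9 of the 36109 genes to which a listed transcript could be assigned. All 9 passed the filter on low counts in both tissues, among 15301 genes tested in aortic endothelial cells (ECs) and 13816 tested in heart tissue.

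The question was whether loss of Hmox2, which encodes heme oxygenase 2, a heme-degrading enzyme that releases carbon monoxide, was accompanied by a change of these genes in either tissue. RNA came from Hmox2-/- mice, called KO, and from their Hmox2+/+ littermates, called WT, all kept in room air. There were 3 WT and 3 KO libraries of aortic ECs and 4 WT and 3 KO libraries of whole heart, all made from oligo-dT selected RNA with strand kept. The deletion was carried by the whole animal and was not limited to ECs or heart muscle, and the mice used for sequencing were young, with no exact age given for them in the sources used here. EC RNA was obtained by slowly rinsing the aortic lumen with a lysis reagent, so the EC libraries hold the RNA of whatever cells that rinse reached. The sources do not say whether a library was made from 1 mouse or from a pool, so p-values measure the spread between these libraries.

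Type I interferons bind a receptor on nearly every cell, and the kinases on that receptor activate the transcription factor complex ISGF3. ISGF3 binds a short DNA element, the interferon-stimulated response element (ISRE), and switches on a set of antiviral genes. In the vessel wall the same genes are known as a readout of interferon, of viral infection and of nucleic acid in the cytosol. The 9 genes take different places in this circuit. Ifit1, Ifit2 and Ifit3 encode proteins that bind foreign RNA or the partners that do so, Isg15 encodes a ubiquitin-like protein that is attached to other proteins, and Usp18 encodes the protease that removes it and that also damps signalling from the interferon receptor. Irf7 encodes the transcription factor that amplifies interferon production, Oasl2 a relative of the RNA-sensing oligoadenylate synthetases, Rsad2 the antiviral enzyme viperin, and Bst2 tetherin, a membrane protein that holds budding virus at the cell surface.

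On the mouse assembly GRCm39, with GENCODE M39 gene models, Ifit2 (chr19:34527932-34554524), Ifit3 (chr19:34560899-34566443) and Ifit1 (chr19:34618271-34632174) lie beside each other on the plus strand of chromosome 19. Isg15 lies at chr4:156283883-156285303 on the minus strand, Irf7 at chr7:140842619-140846398 on the minus strand and Oasl2 at chr5:115034997-115050295 on the plus strand. Rsad2 lies at chr12:26492745-26506451 on the minus strand, Usp18 at chr6:121222848-121247877 on the plus strand and Bst2 at chr8:71986895-71990114 on the minus strand. All are protein coding, and each value below sums all listed transcripts of the gene. Ifit3 shared 56.7% of its 31-base words with other genes, nearly all of them with its copy Ifit3b, so its counts may be divided between the copies by the counting method. Isg15 shared 12.6% of its words, and the other members 5.39% or less. Irf7 overlaps Phrf1, and Ifit1 overlaps Ifit1bl2.

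The ISRE core was searched for in the promoter windows of the members, since it is the element to which ISGF3 binds. The windows run from 250 bases before to 50 bases after a RefSeq transcript start on GRCm38.p6, and 8 of the 9 members had one. The letters searched were GAAANNGAAA on either strand, read as TTTCNNTTTC on the other. They occurred in 5 of the 8 members (62.5%), against 3.99% of the 27025 genes with a window. At least 2 matches, as in Ifit1, Ifit3, Isg15 and Bst2, were found in 0.266% of genes. The stretches that hold the matches are shown 5′ to 3′ on the strand of the gene, with the matched bases in capitals, because they show how alike the elements of the genes are; in Isg15 the 3 matches overlap.
Ifit1, chr19:34640745-34640853, plus strand, capitals from 104 to 76 bases before the start: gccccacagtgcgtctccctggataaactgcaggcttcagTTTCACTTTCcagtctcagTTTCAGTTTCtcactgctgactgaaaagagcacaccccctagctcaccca
Ifit3, chr19:34583333-34583456, plus strand, capitals from 156 to 113 bases before the start: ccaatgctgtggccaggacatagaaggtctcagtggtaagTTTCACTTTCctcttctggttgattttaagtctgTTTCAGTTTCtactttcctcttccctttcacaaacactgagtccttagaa
Isg15, chr4:156200835-156200936, minus strand, capitals from 78 to 57 bases before the start: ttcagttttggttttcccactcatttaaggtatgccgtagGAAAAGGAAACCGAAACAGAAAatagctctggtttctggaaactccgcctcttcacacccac
Rsad2, chr12:26456523-26456612, minus strand, capitals from 120 to 111 bases before the start: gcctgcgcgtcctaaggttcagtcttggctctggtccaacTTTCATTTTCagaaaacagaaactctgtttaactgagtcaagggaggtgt
Bst2, chr8:71537547-71537642, minus strand, capitals from 130 to 115 bases before the start: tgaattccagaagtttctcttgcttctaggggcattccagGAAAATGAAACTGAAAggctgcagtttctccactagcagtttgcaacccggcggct
Ifit1 and Ifit3 carried the same pair of matched words in the same order, TTTCACTTTC and then TTTCAGTTTC. The windows of Ifit2, Irf7 and Oasl2 did not hold these letters. The gamma-activated site, searched as TTCNNNGAA, was present in the windows of Ifit2 and Bst2, that is in 2 of 8 members (25%), against 9.55% of all genes. A match is a description of the window and not a measured binding site.

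Each EC library held 26067147 to 31138642 estimated counts, and the heart libraries held 29815090 to 31619776 apart from heart WT 1, which held 7268626. Hmox2 RNA was lower in KO than in WT in both tissues (log2 fold change -2.34 in ECs and -2.30 in heart). The endothelial marker Pecam1 ranged from 1282 to 3108 CPM (estimated counts scaled to library size) in the EC libraries and from 83.3 to 137 CPM in heart. Of 12 endothelial markers, 10 had a lower fitted level in WT heart than in WT ECs and 2 a higher one. Kdr read 11.5 to 19.9 CPM in the EC libraries and 86.5 to 118 CPM in heart, and Robo4 5.10 to 7.65 CPM and 19.1 to 23.2 CPM. Heart muscle markers were present in the EC WT libraries (summed 134 to 515 CPM over 10 genes) and lower in EC KO (12.3 to 15.2 CPM). The Y-linked gene Ddx3y was nearly absent from EC KO 2 (1.03 CPM) and EC KO 3 (0.920 CPM) and stood at 37.0 CPM or more in the other 11 libraries, and the sex of the mice was not given in the sources used here.

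In ECs, the members were dominated by a single library. The third WT library, EC WT 3, had the highest level of all 9 genes among the 6 EC libraries. At 31.7 CPM, Isg15 was 4.84 times as high there as in the next library, Usp18 4.56 times, Ifit3 4.53 times, Irf7 3.86 times, Ifit1 3.35 times and Oasl2 2.30 times. Of all genes tested, 12.1% were highest in EC WT 3, and 0.457% (70 genes) were at least 2 times as high there as in the next EC library, a limit chosen after the values were seen. Of these 70 genes, 6 were members.

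The values of each gene show how far that library stood from the rest. For Isg15, EC WT 1, 2 and 3 read 3.84, 4.34 and 31.7 CPM, and the 3 KO libraries read 5.35, 6.55 and 3.79 CPM in the same order. Usp18 read 6.09, 5.11 and 27.8 CPM in the WT libraries and 3.72, 4.94 and 3.53 CPM in the KO libraries. In both genes the other 5 libraries lay within 1.73-fold of each other, and EC WT 3 was far above all of them. Usp18 was the 1 member whose KO libraries were all below all WT libraries, which held for 40.7% of all genes in one direction or the other.

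Irf7, the amplifier of the response, read 12.3, 12.7 and 57.7 CPM in EC WT 1, 2 and 3 and 12.7, 14.9 and 12.1 CPM in the KO libraries. Outside EC WT 3, the spread of Irf7 was the narrowest of the 9 genes, with a 1.24-fold range over 5 libraries. The RNA-binding Ifit genes were less even. Ifit3 read 14.9, 26.2 and 146 CPM in the WT libraries and 16.0, 32.3 and 17.2 CPM in the KO libraries. Ifit1 read 5.02, 6.92 and 47.3 CPM in the WT libraries and 12.1, 14.1 and 11.6 CPM in the KO libraries. For Ifit1, therefore, the 3 KO libraries fell between EC WT 1 and 2 below and EC WT 3 above.

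Ifit2 moved less, with 10.8, 9.79 and 22.6 CPM in EC WT 1, 2 and 3 and 14.2, 12.6 and 9.82 CPM in the KO libraries. Oasl2 read 16.3, 26.2 and 78.4 CPM in WT and 18.3, 34.1 and 19.4 CPM in KO. In Oasl2 and in Ifit3, EC KO 2 was second to EC WT 3. Rsad2 read 2.62, 4.38 and 8.34 CPM in WT and 4.53, 2.18 and 2.24 CPM in KO, and Bst2 read 40.8, 45.9 and 84.1 CPM in WT and 47.7, 69.9 and 40.9 CPM in KO. In both, the WT and KO libraries overlapped, and EC WT 3 was 1.84 and 1.20 times as high as the next library.

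**Figure D1:**
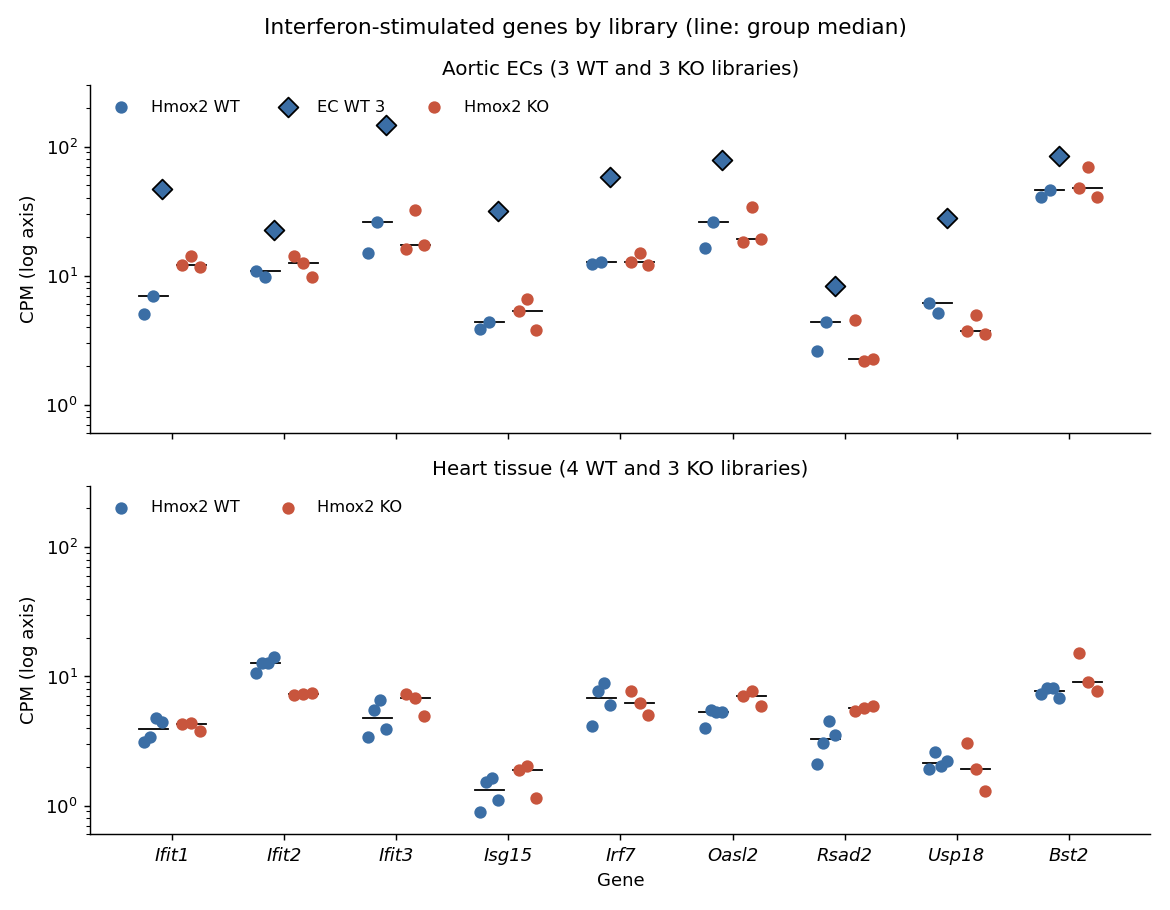
Level of each of the 9 genes in every library, as CPM on a log axis, for aortic ECs (top) and heart tissue (bottom), with WT in blue, KO in red and a line at each group's median. EC WT 3, drawn as a diamond, lies above every other EC library for all 9 genes (Ifit3 at 146 CPM). In heart no single library lies above the rest for all 9 genes, and Rsad2 runs from 2.08 to 5.89 CPM.

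Compared with WT ECs, KO ECs had lower fitted levels of all 9 genes, but 0 of 9 passed the test (edgeR quasi-likelihood test, Benjamini-Hochberg adjusted p of at most 0.05), against 18.1% of all genes tested. At an unadjusted p under 0.05 there was 1 member, Usp18, against 35.3% of all genes. DESeq2 also called Usp18 and no other member (adjusted p = 0.0194), among 4033 of 15301 genes called. The log2 fold changes ran from -0.11 for Bst2 to -1.68 for Usp18, with a median of -0.78 (all genes: -0.02). Usp18 had a mean of 12.99 ± 12.8 CPM in WT and 4.06 ± 0.766 CPM in KO (SD, n = 3 each), with a log2 fold change of -1.68 ± 0.63 (SE) and an adjusted p of 0.10 in edgeR. Ifit3 followed with 62.5 ± 72.9 CPM in WT and 21.8 ± 9.11 CPM in KO and a log2 fold change of -1.52 ± 0.79 (edgeR adjusted p = 0.21). Isg15 (-1.35 ± 0.78) and Irf7 (-1.06 ± 0.58) had the next lowest log2 fold changes. The WT standard deviation was about as large as the WT mean for Usp18, Ifit3, Isg15, Irf7 and Ifit1, with coefficients of variation of 94.6% to 121%, whereas in KO those of the same genes were 10.7% to 41.7%.

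Without EC WT 3, the direction turned for 7 of the 9 genes. That library was singled out because it was highest for all 9 genes. Leaving it out therefore raises each fitted change, and the calls without it are descriptions, not a separate test. The median log2 fold change of the members was then 0.16, with 7 genes above 0 and 2 below, and 1 of 9 was called in edgeR against 22.9% of all genes. The called gene was Ifit1, with 5.97 ± 1.34 CPM in the remaining 2 WT libraries and 12.6 ± 1.35 CPM in the 3 KO libraries (log2 fold change 1.07 ± 0.21, adjusted p = 0.0178). Its KO libraries were all above both remaining WT libraries. Usp18 was on the other side of 0 (-0.47 ± 0.26, adjusted p = 0.22 in edgeR), with its KO libraries still all below both WT libraries. At 56.5%, such a lack of overlap was common among all genes in a comparison of 3 libraries with 2. Rsad2 had a log2 fold change of -0.23 ± 0.44, and the other 6 genes ranged from 0.08 to 0.35. Leaving out any other EC library gave 0 called members and kept the fitted change below 0, except for Bst2 without EC KO 3 (0.06).

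The makeup of the EC libraries differed between the genotypes as well. Summed over their lists, the endothelial markers read 5723 to 6973 CPM in KO and 3322 to 4825 CPM in WT, the macrophage markers 862 to 1342 CPM in KO and 514 to 689 CPM in WT, and the fibroblast markers 5733 to 6614 CPM in KO and 2337 to 4396 CPM in WT. The smooth muscle markers read 1063 to 3636 CPM in KO and 3294 to 6440 CPM in WT. Single markers did not all follow their sums. In edgeR, 5 of 12 endothelial markers rose and 1 fell, and 3 of 7 fibroblast markers rose and 1 fell. Of 12 macrophage markers 4 rose and 0 fell, and of 7 smooth muscle markers 0 rose and 3 fell, against 18.1% of all genes called. Kdr was lower in KO, at 11.5 to 13.2 CPM against 16.8 to 19.9 CPM in WT. In bulk RNA, fewer cells of a type and less RNA per cell cannot be told apart, and the part of these markers in the level of the 9 genes was not tested. With Y-linked RNA as a covariate, 0 of 9 members were called in ECs in edgeR, where only 208 of all 15301 genes were called. The log2 fold change of Usp18 was then -1.81.

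**Figure D2:**
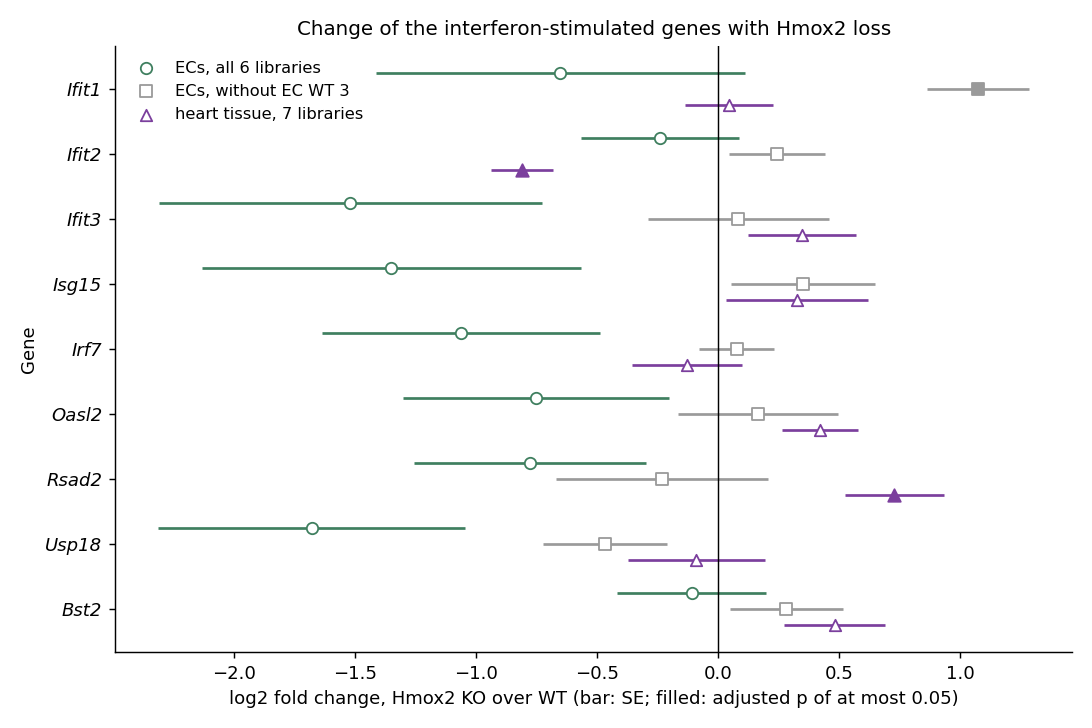
Log2 fold change of each gene, KO over WT, with its standard error, for all 6 EC libraries (circles), the 5 EC libraries without EC WT 3 (squares) and the 7 heart libraries (triangles); filled symbols mark an adjusted p of at most 0.05 in edgeR. All 9 circles lie below 0, 7 of the 9 squares lie above 0, and Ifit1 is the only filled square.

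To see which genes shared the high level in EC WT 3, lists of related genes were set beside the members. Among 73 tested type I interferon-stimulated genes outside the 9, 45 were highest in EC WT 3 and 14 were at least 2 times as high as in the next EC library. Together with the members, these made 20 of the 70 genes past that limit (28.6%), whereas the lists made up 0.536% of the genes tested. In each of the other 5 EC libraries, 0 or 1 of these interferon-stimulated genes stood out in this way, among 23 to 262 genes in all. Of 30 genes induced mainly by interferon gamma, the type II interferon of T and NK cells, 2 were highest in EC WT 3 and 1, Gbp10, was past the limit. Of 17 targets of NF-kB, the factor behind the inflammatory response of ECs, 4 were highest there and 0 were past the limit. Among 20 nucleic acid sensors and adaptors, the DNA and RNA sensors Zbp1 and Dhx58 were past it. Both are also on the list of other type I interferon-stimulated genes and are among its 14 past the limit.

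**Figure D3:**
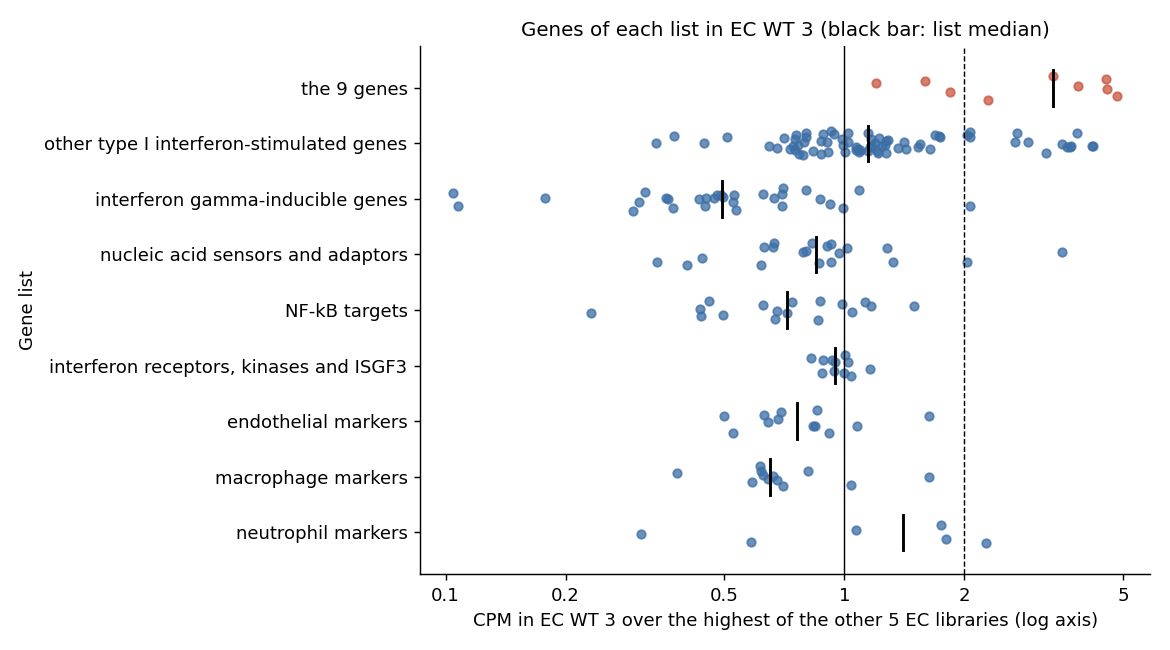
For each tested gene of 9 lists, the CPM in EC WT 3 divided by the highest CPM in the other 5 EC libraries, on a log axis, with list medians as black bars and a dashed line at 2. The 9 genes have a median ratio of 3.35 and all lie above 1, while the interferon gamma-inducible genes have a median ratio of 0.493.

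The interferon genes themselves were nearly silent. Of 20 interferon ligand genes listed, 17 were at 0 in all 13 libraries, none was tested, and the highest reading was 4 estimated counts in a library. A count of 0 allows up to 3 counts, or 0.0949 to 0.413 per 1000000 counts over the libraries, for counting error only, so the RNA was not detectable at this depth rather than shown to be absent. Of the 11 tested genes for interferon receptors, their kinases and ISGF3, 4 were highest in EC WT 3 and 0 were past the limit.

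Markers of other cells in EC WT 3 gave a mixed picture. Of 6 neutrophil markers tested, 4 were highest in EC WT 3 and 1, Mmp8, was past the limit. Their summed level was 14.3, 49.6 and 79.3 CPM in EC WT 1, 2 and 3 and 10.1 to 35.2 CPM in KO. The T and NK cell, B cell and macrophage markers had median ratios of 0.311, 0.723 and 0.653 between EC WT 3 and the highest other EC library, and the leukocyte marker Ptprc read 14.5, 45.7 and 21.3 CPM in EC WT 1, 2 and 3. Plasmacytoid dendritic cells are the main producers of type I interferon, and their 8 markers summed to 68.8 to 86.0 CPM in EC WT and 78.0 to 88.7 CPM in EC KO, most of it from Tcf4, with 43.8 to 67.8 CPM in the EC libraries. Their marker Siglech read 2.31 to 4.42 CPM in EC WT and 5.22 to 8.22 CPM in EC KO, without overlap. Lair1 went the other way, also without overlap, at 2.34 to 2.90 CPM in EC WT and 1.03 to 2.02 CPM in EC KO. Such a lack of overlap held for 40.7% of all genes in ECs. Of the 7 markers tested in ECs, 3 had a log2 fold change above 0 and 4 below. In edgeR 0 rose and 1 fell, against 18.1% of all genes called. The marker that fell was Cox6a2, not Lair1. Cox6a2 was far higher in every heart library than in any EC library. Among the EC libraries it was highest in EC WT 2, as was the summed level of the heart muscle markers. Its fall is therefore not read as that of a plasmacytoid dendritic cell marker. The part of neutrophil RNA in the level of the members was not tested.

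The genes that varied most like the members were found by correlating each gene with the mean log2 CPM of the 9 genes, after subtraction of each group's mean, over 13 libraries and 13351 genes tested in both tissues. The 10 closest were Phf11d (r = 0.960), Trim30a (0.952), Rtp4 (0.940), Parp12 (0.938), Xaf1 (0.922), Ifi44 (0.910), Ifit3b (0.909), Tle2 (0.908), Zfp1008 (0.908) and Ifih1 (0.907). The first 7 and Ifih1, which encodes an RNA sensor, are on the list of other type I interferon-stimulated genes. Tle2, a transcriptional corepressor, and Zfp1008 were on no list. These correlations are descriptions over libraries that share EC WT 3: its members' mean was 5.01 in log2 CPM, against 2.79 to 3.34 in the other 5 EC libraries. Without it, over 12 libraries, r fell to between 0.637 (Parp12) and 0.856 (Rtp4). Among the members, Isg15 followed the mean of the 9 most closely both with and without EC WT 3 (r = 0.988 and 0.928, itself included), and Rsad2 least closely with it (0.721).

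In heart tissue no single library stood above the rest for all 9 genes. Ifit2 and Rsad2 passed the test, in opposite directions: Ifit2 fell and Rsad2 rose in KO hearts. That made 2 of 9 called in edgeR, against 33.4% of all genes tested in heart. Neither reached an absolute log2 fold change of 1 (0 of 9, against 6.71% of all genes called). The median log2 fold change of the 9 genes was 0.32 (all genes: -0.01), with 6 genes above 0 and 3 below.

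Ifit2 read 10.7, 12.8, 12.7 and 14.2 CPM in heart WT 1 to 4 and 7.14, 7.26 and 7.39 CPM in heart KO 1 to 3. All KO hearts were below all WT hearts, with means of 12.6 ± 1.45 CPM in WT (SD, n = 4) and 7.26 ± 0.125 CPM in KO (SD, n = 3). The log2 fold change was -0.81 ± 0.13 (edgeR adjusted p = 0.00135), and leaving out any 1 heart library kept it between -0.87 and -0.75 and called each time. On the log2(TPM + 1) scale the change was -0.33 with an adjusted p of 0.0781 in limma, a scale on which the median of all heart genes lay 0.229 higher than in counts.

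Rsad2 read 2.08, 3.05, 4.53 and 3.50 CPM in heart WT 1 to 4 and 5.41, 5.75 and 5.89 CPM in heart KO 1 to 3. Every KO heart was above every WT heart, although the lowest value, in heart WT 1, rested on 14 estimated counts. The means were 3.29 ± 1.02 CPM in WT and 5.68 ± 0.251 CPM in KO, with a log2 fold change of 0.73 ± 0.20 (edgeR adjusted p = 0.019). The call was lost without heart KO 2 (edgeR adjusted p = 0.06), without heart WT 2 (0.0553), in a fit of all 13 libraries (0.145) and with length-scaled TPM in place of counts (log2 fold change 0.50, adjusted p = 0.247).

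Oasl2 and Bst2 were higher in KO hearts without passing the test. Oasl2 read 4.02, 5.51, 5.33 and 5.27 CPM in heart WT 1 to 4 and 7.11, 7.68 and 5.86 CPM in heart KO 1 to 3, without overlap between the groups (log2 fold change 0.42 ± 0.16, edgeR adjusted p = 0.0581). Ifit2, Rsad2 and Oasl2 were thus 3 of 9 members without overlap, against 40.4% of all genes in heart. Bst2 read 7.29, 8.17, 8.11 and 6.83 CPM in heart WT 1 to 4 and 15.1, 9.14 and 7.69 CPM in heart KO 1 to 3 (0.48 ± 0.21, edgeR adjusted p = 0.0984). Heart KO 1 set the size of the Bst2 difference, and without it the log2 fold change was 0.14. Without heart KO 3, both Oasl2 and Bst2 passed the test in edgeR (adjusted p = 0.023 and 0.0163).

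**Figure D4:**
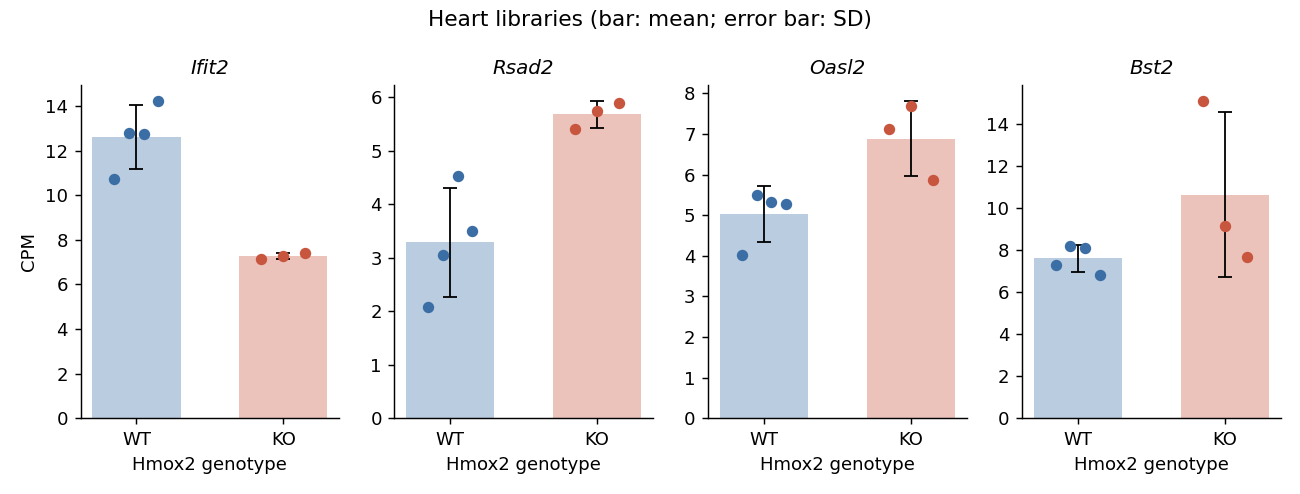
CPM of Ifit2, Rsad2, Oasl2 and Bst2 in each heart library, with the mean as a bar, the SD as an error bar and axes that start at 0, for 4 WT and 3 KO libraries. Ifit2 is lower in all 3 KO hearts (7.14 to 7.39 CPM), Rsad2 and Oasl2 are higher in all 3, and heart KO 1 stands above the rest for Bst2 (15.1 CPM).

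The other 5 members showed smaller differences in heart, with adjusted p-values from 0.25 (Ifit3) to 0.87 (Ifit1) in edgeR. The log2 fold changes were 0.35 ± 0.22 for Ifit3, 0.32 ± 0.29 for Isg15, 0.05 ± 0.18 for Ifit1, -0.09 ± 0.28 for Usp18 and -0.13 ± 0.23 for Irf7. Isg15 read 0.892 to 1.64 CPM in WT and 1.14 to 2.03 CPM in KO, with overlap, and its lowest value, in heart WT 1, rested on 6 estimated counts. When Ifit3 and its copy Ifit3b were summed, the log2 fold change in heart was 0.16.

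Cell markers moved with the heart comparison as well. Of 12 macrophage markers, 5 rose and 0 fell in KO hearts, against 17.2% of all genes that rose, and none was at 0 in every library of a group. Their summed level was 422, 273 and 247 CPM in heart KO 1 to 3 and 158 to 226 CPM in WT, without overlap and with heart KO 1 again highest. The leukocyte marker Ptprc read 2.18 to 3.88 CPM in KO hearts and 4.02 to 5.33 CPM in WT hearts, with KO lower and without overlap. Ptprc was not called in edgeR, and such a lack of overlap held for 40.4% of all genes in heart. The 12 endothelial markers summed to 806 to 854 CPM in KO hearts and 626 to 752 CPM in WT hearts. The part of these markers in the level of Rsad2, Oasl2 and Bst2 was not tested.

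Between the tissues, the genotype effect differed for Rsad2. Its log2 fold change was 1.56 ± 0.53 higher in heart than in ECs (edgeR, 13 libraries, adjusted p = 0.0395), which made 1 of 9 members called against 28.8% of all genes. The call was lost when EC WT 3 was left out (1.02 ± 0.46, adjusted p = 0.11). In its place, Ifit1 (-0.98 ± 0.28, adjusted p = 0.0177) and Ifit2 (-1.01 ± 0.22, adjusted p = 0.00486) then had a lower genotype effect in heart than in ECs, 2 of 9 against 31.9% of all genes. Leaving out EC WT 3, singled out for its level of these genes, lowers each fitted difference, so these calls are descriptions. A genotype effect common to both tissues was called in edgeR for 0 of 9 members (10.8% of all genes), with Ifit2 alone at an unadjusted p under 0.05 (27% of all genes).

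The level of the members in WT mice differed between heart and aortic ECs for 6 of 9 genes, all lower in heart, against 67.9% of all genes called and 35.4% called lower. Ifit3 was lower by a log2 fold change of -2.92, Isg15 by -2.59, Oasl2 by -2.25, Bst2 by -2.19, Usp18 by -1.83 and Irf7 by -1.28 (adjusted p from 2.06e-05 for Bst2 to 0.0487 for Irf7 in edgeR). The 3 genes not called were Ifit1, Ifit2 and Rsad2. Without EC WT 3, 5 of 9 were called (65.2% of all genes): Irf7 and Usp18 no longer were, Ifit3 (-1.30), Isg15 (-0.88), Oasl2 (-1.32) and Bst2 (-1.77) were still lower in heart, and Ifit2 was called higher in heart (1.04). Leaving out that library raises each fitted change toward heart, so these calls too are descriptions.

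Levels were compared between genes as TPM, a unit scaled to transcript length as well as to depth. In the 3 EC KO libraries, Bst2 was highest at 73.6 to 106 TPM and Rsad2 lowest at 0.561 to 1.40 TPM. Ifit3 (11.3 to 19.2 TPM), Oasl2 (9.83 to 16.8 TPM), Isg15 (7.20 to 10.5 TPM) and Irf7 (8.14 to 8.99 TPM) came next, and each of these ranges overlapped with its neighbour. Ifit1 (5.13 to 5.42 TPM) lay above Ifit2 (3.14 to 4.75 TPM), which overlapped with Usp18 (2.62 to 3.39 TPM). In WT ECs, EC WT 3 stretched the ranges of all genes but left Bst2 first and Rsad2 last by mean, at 102 and 1.58 TPM.

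In WT hearts, Bst2 was again highest, at 9.92 to 13.6 TPM, and Rsad2 again had the lowest mean, 0.959 TPM. The other 7 genes lay between 1.12 and 4.84 TPM, and each overlapped with its neighbour in the order Irf7, Ifit2, Ifit3, Oasl2, Isg15, Ifit1 and Usp18. In KO hearts, Bst2 ranged from 15.3 to 26.7 TPM, and Ifit2, the gene that fell, stood at the sixth place by mean with 2.37 to 2.57 TPM. Rsad2 stood at 1.61 to 1.99 TPM in KO hearts and at 0.533 to 1.58 TPM in WT hearts, and most of it came from 1 of its 3 listed transcripts, 3782 bases long, with a mean of 0.782 TPM in WT and 1.79 TPM in KO.

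Around the members, other genes of the pathway were tested for the effect of genotype in ECs. Among interferon receptors, kinases and ISGF3 genes, 0 rose and 1 of 11 fell: Ifnar1, a chain of the type I interferon receptor, at 47.0 ± 2.15 CPM in WT and 34.8 ± 1.78 CPM in KO (log2 fold change -0.44, edgeR adjusted p = 0.0285). Of 20 nucleic acid sensors and adaptors, 4 rose and 2 fell, so that 6 of 20 were called, against 18.1% of all genes. They included the DNA-degrading enzyme Trex1 (-0.81), the RNA sensor Tlr3 (0.67) and the DNA-sensing adaptor Sting1 (0.65). None of 7 other interferon regulatory factors, 9 genes listed as negative regulators and 30 interferon gamma-inducible genes passed the test in either direction. Of those 30 interferon gamma-inducible genes, 24 had a log2 fold change above 0, with a median of 0.37 (all genes: -0.02). The summed level of all 31 genes of that list was 3792 CPM in EC KO 2 and 1569 to 2276 CPM in the other 5 EC libraries, and among them the GTPase Gbp4 read 309 CPM in EC KO 2 and 28.2 to 76.9 CPM in the others. Of 17 NF-kB targets, 4 rose and 0 fell, against 18.1% of all genes called in either direction. The 4 included Tnfaip2 (1.08), the adhesion molecule Selp (0.64) and the chemokine Ccl2 (1.81). The level of Ccl2 was low, at 0.792 ± 0.115 CPM in EC WT and 2.79 ± 1.39 CPM in EC KO (SD).

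The 73 other type I interferon-stimulated genes tested in ECs had 1 gene that rose, Ifitm2 (0.50), and 2 that fell, Xaf1 (-2.10) and Lgals3bp (-0.84). Of all genes tested in ECs, 18.1% were called in either direction. Xaf1, which encodes a pro-apoptotic factor, read 36.9, 41.9 and 112 CPM in EC WT 1, 2 and 3 and 13.2, 18.3 and 13.1 CPM in KO, without overlap. Without EC WT 3 it still fell (-1.41, edgeR adjusted p = 0.00735), while the list as a whole had 14 genes that rose and 1 that fell, with a median of 0.35 in place of -0.02. The 14 and 1 stand against 12% of all genes that rose and 11% that fell in that comparison. EC WT 3 was singled out for its level of interferon-stimulated genes, so these counts are descriptions, not a separate test. The 14 included Ifi204 (1.02) and Ifi207 (1.17), members of the DNA-binding p200 family.

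In heart the same list had 8 genes that rose and 11 that fell of 71, against 17.2% and 16.2% of all genes. The lowest adjusted p-values belonged to genes that fell: Ifi203, of the p200 family, at 22.5 ± 2.62 CPM in WT and 8.35 ± 1.86 CPM in KO (log2 fold change -1.42), Xaf1 (-1.67) and the helicase Helz2 (-0.66). Xaf1 thus fell in both tissues, as did none of the 9 genes. Of 29 interferon gamma-inducible genes, 5 rose and 3 fell, against the same 17.2% and 16.2% of all genes. Among them were the GTPases Iigp1 (-0.88) and Gbp2 (0.79) and the immunoproteasome subunit Psmb10 (0.77). Of 16 NF-kB targets, 3 rose and 0 fell, so the share that rose was near the 17.2% of all genes. The 3 were the adhesion molecules Vcam1 (0.71) and Icam1 (0.93) and the NF-kB subunit Relb (1.47).

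Upstream of the members in heart, the kinase Jak2 was the 1 of 12 receptor, kinase and ISGF3 genes that fell (-0.36), and 0 rose, against 33.4% of all genes called in heart. Of 19 sensors and adaptors, 2 rose and 2 fell, with Trex1 (0.70) higher and Samhd1 (-0.41), a dNTP-degrading enzyme, and the kinase Ikbke (-1.54) lower in KO. The level of Ikbke was low, at 0.857 ± 0.446 CPM in WT hearts and 0.319 ± 0.167 CPM in KO hearts (SD). Trex1 was therefore lower in KO ECs and higher in KO hearts. Among 8 genes listed as negative regulators, Isg20 (0.82) rose and Pias1 (-0.40) fell. Isg20 encodes an antiviral RNA exonuclease, so its rise is not read as that of a negative regulator. None of 7 other interferon regulatory factors passed the test.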

How the data were processed

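The authors quantified paired-end reads with kallisto v0.44.0 against GENCODE transcripts (their methods name GRCm39, and the processing notes also list mm10). The deposited values per transcript were estimated counts and TPM, with transcript length and effective length. The 9 genes and all gene lists were chosen with earlier results of these data known. Here, 115140 of 118489 transcripts (97.2%) were matched by stable identifier to GENCODE M39 and summed per gene. Unmatched transcripts, left out, held 0.755% to 1.01% of the counts of a library. Estimated counts were rounded and tested with edgeR 4.0.16 (R 4.3.3; TMM, filterByExpr with a minimum count of 10, quasi-likelihood test) within each tissue, and with all 13 libraries for the difference between tissues. A gene was called when its p-value, adjusted after Benjamini and Hochberg over every gene of the fit, did not exceed 0.05. Replicates varied with an edgeR biological coefficient of 0.241 (ECs) and 0.149 (heart). CPM use TMM-scaled library sizes. Of each list and tissue, the text names the 3 genes with the lowest adjusted p among those called, plus genes that share at least 20% of a member's 31-base words, the 10 genes most like the members' mean, and Hmox2. Gbp10, Zbp1, Dhx58 and Mmp8 were named after their values were seen, as were genes given for context. Alternatives were DESeq2 1.42.0, upper-quartile factors, no filter, length-scaled TPM, limma 3.58.1 on log2(TPM + 1) or log2(TPM + 0.1), Ifit3 and Ifit3b summed, Y-linked RNA as a covariate, a replicate block and each library left out. The edgeR fits were tested on simulated counts. Sequences came from RefSeq promoters on GRCm38.p6.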

Additional observations from a re-analysis of the deposited data

Results flagged for a closer look

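Oasl2 in WT hearts was flagged for a library far from the others: heart WT 1 read 4.02 CPM and the other 3 WT hearts 5.27 to 5.51 CPM. Chance flags about 1 in 20 groups by this measure, and heart WT 1 was also the library with the lowest depth, 7268626 estimated counts. Without it the log2 fold change of Oasl2 in heart was 0.36 (edgeR adjusted p = 0.107).

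Rsad2 was flagged because its genotype effect differed between the tissues, with a log2 fold change 1.56 higher in heart than in ECs (edgeR adjusted p = 0.0395). The adjusted p ranged from 0.0119 to 0.315 over 22 alternatives, of which 7 kept the call.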

How the results depend on the processing

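The number of the 9 genes called in ECs was 0, and 1 (Usp18) with DESeq2 (4033 of 15301 genes called) and with all 13 libraries in 1 fit (4319 of 15938 genes). In heart it was 2, but 1 (Ifit2) with all 13 libraries in 1 fit (3819 of 15938 genes) or with length-scaled TPM (3712 of 13898 genes). It was 4 with limma on log2(TPM + 0.1) and log2(TPM + 1), where 4862 and 4945 of 13816 genes were called. All 4 rose, on scales where the median of all heart genes moved up by 0.317 and 0.229. The single call for the difference between tissues became 0 with length-scaled TPM, limma on either TPM scale, the replicate block and upper-quartile factors. For the effect common to both tissues, 0 became 1 with length-scaled TPM. With 1 library left out at a time, the calls ranged from 0 to 1 in ECs, 1 to 4 in heart, 0 to 4 for the difference between tissues, 0 to 1 for the common effect and 5 to 7 between the WT tissues. The replicate numbers did not pair the libraries (correlations of deviations from -0.03 to 0.18). With the replicate block 0 members were called in ECs (2716 of 15301 genes) and 2 in heart (2899 of 13816 genes).

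Signs turned as follows. In ECs, Ifit1 was at 0.056 with limma on log2(TPM + 0.1) and at 0.12 with the replicate block. In heart, limma on log2(TPM + 0.1) and log2(TPM + 1) gave 0.14 and 0.11 for Irf7 and 0.13 and 0.09 for Usp18, on scales where the median of all genes moved by 0.317 and 0.229. Between the WT tissues the same scales gave -0.47 and -0.39 for Ifit2 and -0.55 and -0.34 for Rsad2, and upper-quartile factors gave -0.016 for Rsad2. In that comparison the median of all genes moved by -0.897 and -0.634 on these scales and by -0.119 with upper-quartile factors. With 1 library left out, the log2 fold changes in ECs ranged from -1.11 to 1.07 for Ifit1, -0.46 to 0.24 for Ifit2, -1.98 to 0.084 for Ifit3, -1.79 to 0.35 for Isg15, -1.41 to 0.076 for Irf7, -1.13 to 0.17 for Oasl2 and -0.36 to 0.28 for Bst2. In heart they ranged from -0.026 to 0.15 for Ifit1, -0.30 to 0.029 for Irf7 and -0.47 to 0.17 for Usp18. For the difference between tissues they ranged from -0.98 to 1.20 for Ifit1 and -0.16 to 1.33 for Irf7, and between the WT tissues from -2.02 to 0.15 for Ifit1 and -0.17 to 0.68 for Rsad2. The cause of these turns was not tested beyond the libraries left out. The Y-linked covariate was the presence or absence of Y-linked RNA, which all 7 heart libraries held, so it could not be fitted in heart. The level of the Y-linked gene Ddx3y was lower in KO hearts (log2 fold change -0.82, edgeR adjusted p = 0.0027). A WT heart held 6 to 119 estimated counts of Isg15 or Rsad2, which limits the precision of these genes.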
